A study of Homo sapiens with 9 samples.

Results

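The genes described here are 37 genes of glycolysis and of the response to low oxygen, taken by symbol from the 36385 genes of a deposited RNA-seq table. They were taken as a list of names, with earlier results of these data known, and each name matched 1 row. The list holds 4 glucose and lactate transporters, 17 glycolytic enzymes, 3 regulators of glycolytic flux, the 2 oxygen-regulated HIF alpha subunits and 11 targets of HIF outside glycolysis. All 37 passed the filter on low counts in each comparison.

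The cells were MG-63, an established human osteosarcoma line used as a stand-in for osteoblasts, grown for 7 days in osteogenic medium (dexamethasone at 100 nM, ascorbic acid at 50 µg/mL, and beta-glycerophosphate at 10 mM). All groups shared that medium. The 3 groups, of 3 libraries each, differed in the surface: Ti6Al4V, a titanium alloy used for implants (bare alloy), Ti6Al4V+TiB2 (TiB2), and boronized Ti6Al4V/HA (HA coating). The labels mark the TiB2 libraries as left out of the authors' final analysis, and do not state that replicate libraries are separate cultures. The p-values therefore speak only to differences among the libraries, which may be technical.

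Glycolysis turns glucose into pyruvate in the cytosol, and lactate dehydrogenase turns pyruvate into lactate. HIF is a transcription factor made of an oxygen-regulated alpha subunit, HIF-1alpha or HIF-2alpha, and a stable partner. In oxygen the alpha subunits are hydroxylated by the EGLN enzymes and destroyed, and in low oxygen they build up and switch on many glycolytic genes together with genes of acid balance, vessel growth and mitochondrial turnover. HIF1A and EPAS1 encode the alpha subunits, whose level is set largely at the protein, which was not measured here.

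Libraries held 58464306 to 72542556 counts. Bare alloy replicate 1 had 6.46% of its counts in 4 unnamed rows of the ribosomal DNA cluster on chromosome 21, against 0.0831% to 1.07% in the other libraries. A trend with GC content and transcript length accounted for 41.2% and 47.3% of the deviation of HA replicates 2 and 3 from the mean of all libraries, and for 1.95% to 23.9% in the others. Bare alloy replicate 1 and the 3 HA libraries also stood apart from the other 5 libraries in some transcripts: the T cell gene CD3E, for example, lay at 0 in those 4 libraries and at 0.543 to 0.905 FPKM in the other 5. The labels call the line epithelial-like. VIM, a mesenchymal marker, lay at 533 to 1348 FPKM, and RUNX2, an osteoblast factor, at most at 0.494 FPKM. Of the epithelial genes, the keratins KRT8, KRT18 and KRT19 lay at 10.1 to 16.6, 13.5 to 32.4 and 2.68 to 4.82 FPKM, while EPCAM and CDH1 reached at most 0.472 and 0.0834 FPKM. The summed mesenchymal and osteoblast markers were 2748 to 3134 FPKM for bare alloy, against 1614 to 1682 for TiB2 and 1091 to 1689 for the HA libraries. Bare alloy and the treated surfaces did not overlap. VIM, SPARC and the collagen genes carried that sum. ALPL, on the same list, went the other way, at 0.354 to 0.708 FPKM on bare alloy and 2.45 to 5.26 on the treated surfaces. RUNX2 lay at 0.245 to 0.283 FPKM on bare alloy and 0.223 to 0.494 on the treated surfaces. The part of these markers in the results was not tested.

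HIF binds DNA at a short core, ACGTG or GCGTG, and these letters were searched on both strands in the 250 bases before the RefSeq start of each gene (GRCh38.p14). The table held 32 of the 37 members, all but SLC2A3, SLC16A1, VEGFA, BNIP3L and NDRG1. Shown are genes on which the results below turn: 3 enzymes that were higher on a treated surface (PGK1, ALDOC and HK2), the pair of lactate dehydrogenase genes, of which LDHB was higher and LDHA did not pass the test, and CA9, a widely used hypoxia marker whose libraries varied widely within the treated surfaces. Capitals mark the cores, which overlap where both strands match in CACGTG.
PGK1, chrX:78103998-78104247, plus strand: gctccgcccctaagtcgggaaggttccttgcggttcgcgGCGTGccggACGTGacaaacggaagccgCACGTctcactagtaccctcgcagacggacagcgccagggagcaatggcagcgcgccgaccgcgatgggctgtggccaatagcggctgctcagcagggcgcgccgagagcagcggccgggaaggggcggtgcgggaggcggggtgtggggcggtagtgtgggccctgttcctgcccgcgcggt
ALDOC, chr17:28576896-28577145, minus strand: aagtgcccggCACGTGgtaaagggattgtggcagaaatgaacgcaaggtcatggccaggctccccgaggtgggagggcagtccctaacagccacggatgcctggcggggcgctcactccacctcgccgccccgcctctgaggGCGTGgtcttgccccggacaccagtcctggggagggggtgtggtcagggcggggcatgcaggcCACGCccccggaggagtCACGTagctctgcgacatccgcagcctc
HK2, chr2:74833877-74834126, plus strand: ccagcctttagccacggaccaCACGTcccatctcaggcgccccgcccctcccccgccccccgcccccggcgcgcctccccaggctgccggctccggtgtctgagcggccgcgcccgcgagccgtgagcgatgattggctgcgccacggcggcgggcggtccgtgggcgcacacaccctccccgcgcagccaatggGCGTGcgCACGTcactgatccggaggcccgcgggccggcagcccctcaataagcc
LDHA, chr11:18394313-18394562, plus strand: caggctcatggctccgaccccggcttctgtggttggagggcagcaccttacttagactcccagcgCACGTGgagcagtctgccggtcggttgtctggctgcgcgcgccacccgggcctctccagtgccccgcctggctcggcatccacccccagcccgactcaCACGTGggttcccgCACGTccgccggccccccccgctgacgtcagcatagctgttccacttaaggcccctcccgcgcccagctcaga
LDHB, chr12:21657843-21658092, minus strand: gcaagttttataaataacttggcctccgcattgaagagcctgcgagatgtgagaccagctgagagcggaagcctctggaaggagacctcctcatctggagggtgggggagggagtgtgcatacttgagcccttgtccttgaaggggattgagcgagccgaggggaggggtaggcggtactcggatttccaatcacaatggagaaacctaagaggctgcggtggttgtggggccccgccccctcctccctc
CA9, chr9:35673678-35673927, plus strand: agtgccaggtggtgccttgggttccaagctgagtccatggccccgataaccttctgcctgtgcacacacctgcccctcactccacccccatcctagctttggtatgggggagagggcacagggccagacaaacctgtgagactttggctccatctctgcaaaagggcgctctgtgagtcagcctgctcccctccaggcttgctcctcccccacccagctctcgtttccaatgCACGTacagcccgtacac

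At least 1 core lay in 10 of 17 glycolytic enzyme promoters (58.8%) and in 7 of 8 promoters of HIF targets outside glycolysis (87.5%), against 55.0% of the 13031 promoters of tested genes and 43.1% of all 27305 promoters. ACGTG alone was found in 47.1% and 50.0% of those groups and in 22.7% of promoters of tested genes. PGK1 had 2 matches to ACGTG and 1 to GCGTG, ALDOC 3 (read from 2 places) and 2, and HK2 2 and 1. LDHA had 5 matches to ACGTG, read from 3 places, and LDHB had neither core in this window. A match is a description of letters only. LDHB and PGAM1, both higher on the HA coating, had no core in this window, and GPI had 1.

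Cells on the HA coating had higher RNA levels of part of glycolysis than cells on bare alloy. None of the 11 HIF targets outside glycolysis passed the test, which is 0 of 11 where 9.89% of all genes did. Of 31 further known HIF targets, taken up below, 4 rose and 1 fell, where 5.02% and 4.88% of all genes did. Of the 37 members 6 rose and 1 fell (edgeR adjusted p under 0.05), a share of 18.9%, against 9.89% of all 20117 genes tested. Rises made up 16.2% of the members and 5.02% of all genes, and falls 2.70% and 4.88%. The rises were GPI, ALDOC, PGK1, PGAM1 and LDHB among the 17 enzymes and PFKFB4 among the regulators, and the fall was EPAS1. The median log2 fold change was 0.56 over the enzymes, 0.12 over the 11 HIF targets outside glycolysis and 0.02 over all genes tested. With an offset for GC content and length the first 2 medians were 0.43 and 0.30, and among genes with a mean FPKM of at least 5 they were 0.42 and -0.10. Whether the enzymes and the other targets differed from each other was not tested. FPKM of the HA libraries lay above all bare alloy libraries for 10 of the 17 enzymes and for BNIP3 and BNIP3L among the 11 targets, against 17.9% of all genes. Over all members 17 of 37 lay higher without overlap and 1 lower, against 33.2% of all genes in either direction and 15.4% lower. In bulk RNA, fewer cells of a type and less RNA per cell cannot be told apart.

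PGK1 encodes phosphoglycerate kinase, which makes the first ATP of the pathway (ENSG00000102144, GRCh38 chromosome X, 77910739 to 78129295). Its FPKM values, which are per length of the gene, were 73.5, 83.4 and 79.2 on bare alloy, 107, 120.5 and 121 on TiB2, and 131, 158 and 189.9 on the HA coating. The 3 surfaces did not overlap, with bare alloy lowest and the HA coating highest. Against bare alloy the log2 fold change was 1.01 ± 0.21 (SE) on the HA coating (2.02-fold, edgeR adjusted p = 0.0193) and 0.51 ± 0.08 on TiB2 (edgeR adjusted p = 0.00122).

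LDHB, the lactate dehydrogenase subunit typical of heart (ENSG00000111716, chromosome 12, 21635342 to 21657971), lay at 147, 175 and 159 FPKM on bare alloy, 266, 214 and 225 on TiB2 and 216, 377 and 409 on the HA coating. HA replicate 1 stood with the TiB2 libraries and the other HA libraries far above them. The log2 fold change was 1.05 ± 0.26 on the HA coating (edgeR adjusted p = 0.0398) and 0.50 ± 0.10 on TiB2 (edgeR adjusted p = 0.00548). LDHA, the subunit typical of muscle and a textbook HIF target, moved less: 167, 184 and 178 FPKM on bare alloy, 187, 197 and 208 on TiB2 and 227, 262 and 295 on the HA coating. Its 3 surfaces did not overlap, but neither fold change passed (0.56 ± 0.20, edgeR adjusted p = 0.109 on the HA coating, and 0.11 ± 0.08, edgeR adjusted p = 0.362 on TiB2). With the GC and length offset the log2 fold changes on the HA coating were smaller. They were 0.62 for LDHB (edgeR adjusted p = 0.0186) and 0.25 for LDHA (edgeR adjusted p = 0.172).

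PGAM1, phosphoglycerate mutase, lay at 106, 117 and 121 FPKM on bare alloy, 157, 163 and 152 on TiB2 and 184, 176 and 226 on the HA coating, with no overlap of surfaces. Its fold change was 1.69 on the HA coating (edgeR adjusted p = 0.0395) and 1.33 on TiB2 (edgeR adjusted p = 0.00167). GPI, which converts glucose 6-phosphate to fructose 6-phosphate, lay at 20.4, 19.5 and 21.6 FPKM on bare alloy, 32.7, 39.7 and 31.9 on TiB2 and 42.4, 29.8 and 34.2 on the HA coating. Both treated surfaces lay above bare alloy and overlapped each other, with fold changes of 1.71 (edgeR adjusted p = 0.0365) on the HA coating and 1.64 (edgeR adjusted p = 0.000779) on TiB2.

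PFKFB4 makes fructose 2,6-bisphosphate, the signal that speeds phosphofructokinase (ENSG00000114268, chromosome 3, 48517684 to 48561972). Its values were 1.32, 1.36 and 1.43 FPKM on bare alloy, 2.51, 3.22 and 2.63 on TiB2 and 3.63, 2.42 and 3.25 on the HA coating. The treated libraries all exceeded bare alloy and overlapped each other, and the rise was 2.23-fold on the HA coating (edgeR adjusted p = 0.0108) and 1.96-fold on TiB2 (edgeR adjusted p = 0.000593). PFKFB3, the more abundant isozyme here and also a HIF target, lay at 5.66 to 9.09 FPKM over the 9 libraries and passed in neither comparison.

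These HA calls depended on single libraries, and on the set of libraries that stood apart. With that set as a term in a fit of all 9 libraries, none of the members was called on the HA coating. That set holds all HA libraries and, of bare alloy, only replicate 1, so set and surface can hardly be told apart there. In that fit the log2 fold changes were 0.68 for GPI, 1.2 for ALDOC, 1.01 for PGK1 and 0.77 for PGAM1. They were 1.07 for LDHB, 1.11 for PFKFB4 and -1.16 for EPAS1. Without bare alloy replicate 1 only PFKFB4 remained called among the members, and without bare alloy replicate 2 or 3 none did. Over all genes the calls then fell from 1990 to 857, 598 and 601. Without HA replicate 1, 13 members were higher and EPAS1 lower, and without HA replicate 2 or 3, 5 were higher. Calls over all genes were 4185, 1092 and 1908 without HA replicates 1, 2 and 3, of 20926 to 21075 tested. LDHB lost its call without HA replicate 2 and without HA replicate 3, ALDOC and EPAS1 without HA replicate 2 and GPI without HA replicate 3. The log2 fold changes stayed on one side of 0 in each of these cases for all 7 called members, at 0.80 to 1.17 for PGK1 and 1.06 to 1.34 for PFKFB4. With 1 fit over all 9 libraries, which called 3518 of all genes, 11 members were higher and 1 lower. With DESeq2, which called 3562 of all genes, 16 were higher and 1 lower, adding EGLN3, BNIP3 and ANKRD37 of the targets outside glycolysis. Of those targets ADM was called lower with the GC and length offset and without HA replicate 3, BNIP3 higher without HA replicate 1 and ANKRD37 higher without HA replicate 2.

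**Figure D1:**
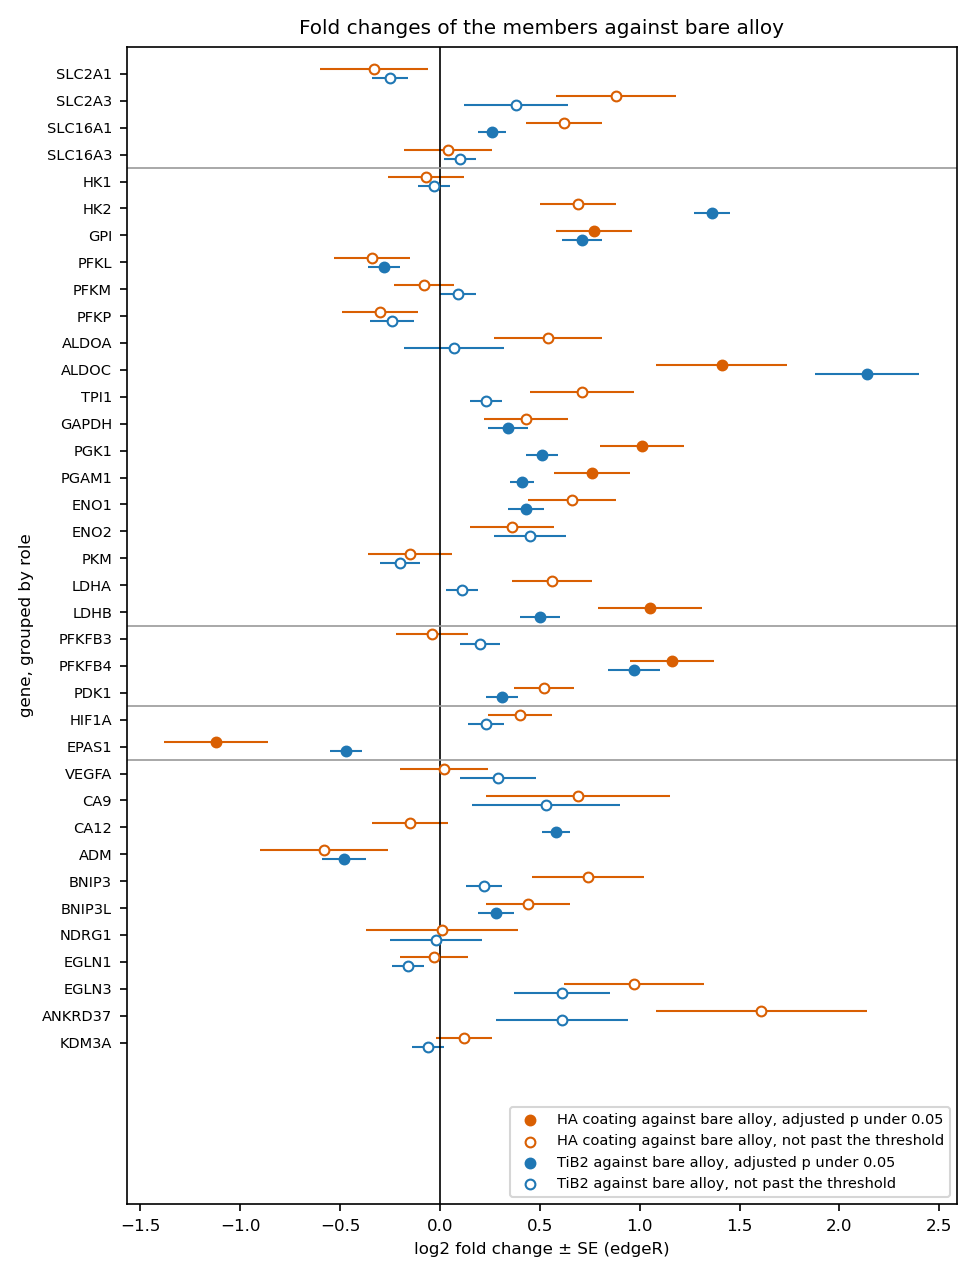
Log2 fold change ± SE (edgeR) of each of the 37 genes (rows, grouped by role: transporters, enzymes, flux regulators, HIF subunits, HIF targets outside glycolysis) for the HA coating (orange) and TiB2 (blue) against the same 3 bare alloy libraries. Filled points passed an adjusted p of 0.05: on the HA coating 5 enzymes, PFKFB4 and EPAS1, and none of the 11 HIF targets outside glycolysis.

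On TiB2 more members were called, in a comparison that called more genes of every kind. Of the 37 members 13 rose and 3 fell, a share of 43.2%, against 25.1% of the 20152 genes tested. Rises made up 35.1% of the members and 12.9% of all genes, and falls 8.11% and 12.2%. FPKM did not overlap for 17 members higher and 4 lower, against 40.1% of all genes in either direction, 22.9% higher and 17.2% lower. HK2, GPI, ALDOC, GAPDH, PGK1, PGAM1, ENO1 and LDHB rose among the enzymes, SLC16A1 among the transporters, PFKFB4 and PDK1 among the regulators, and CA12 and BNIP3L among the targets outside glycolysis. PFKL, EPAS1 and ADM fell. The TiB2 and HA comparisons share the bare alloy libraries, so their fold changes are not independent of each other. With the set of libraries that stood apart as a term, 3 members stayed called on TiB2 (HK2, ALDOC and PFKFB4), where 1173 of 21213 genes were called. In 1 fit over all 9 libraries without that term 5 members did, with CA12 and GPI, where 2132 genes were called.

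HK2 had the smallest p of the members on TiB2. It encodes a hexokinase that can sit on mitochondria and starts glycolysis in many tumours (ENSG00000159399, chromosome 2, 74834127 to 74893359). Its FPKM values were 20.7, 24.3 and 24.4 on bare alloy, 63.0, 67.8 and 52.8 on TiB2 and 48.7, 37.8 and 28.1 on the HA coating. TiB2 lay highest, the HA coating between, and no surfaces overlapped. The log2 fold change was 1.36 ± 0.09 on TiB2 (2.56-fold, edgeR adjusted p = 1.54e-05) and 0.69 ± 0.19 on the HA coating, which missed the threshold (edgeR adjusted p = 0.0535). HK1, the hexokinase of most tissues, lay at 26.5 to 38.9 FPKM across all 9 libraries and was called on neither surface.

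ALDOC, the brain-type aldolase (ENSG00000109107, chromosome 17, 28573115 to 28576948), had the largest fold change of the members on TiB2 at a low level. It lay at 0.274, 0.223 and 0.256 FPKM on bare alloy, 1.00, 1.49 and 1.03 on TiB2 and 0.920, 0.601 and 0.562 on the HA coating. The order was that of HK2, with TiB2 highest and no overlap, and the log2 fold changes were 2.14 ± 0.26 on TiB2 (edgeR adjusted p = 0.000411) and 1.41 ± 0.33 on the HA coating (edgeR adjusted p = 0.0316). ALDOA, which carries nearly all aldolase RNA here, lay at 336, 309 and 371 FPKM on bare alloy, 209, 484 and 417 on TiB2 and 467, 354 and 654 on the HA coating, and its surfaces overlapped.

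Other enzymes rose by smaller amounts on TiB2. ENO1, the main enolase, lay at 465, 483 and 509 FPKM on bare alloy, 645, 702 and 685 on TiB2 and 721, 684 and 917 on the HA coating. GAPDH, often used as a reference gene, lay at 1416, 1429 and 1516 FPKM on bare alloy, 1796, 1945 and 1992 on TiB2 and 1813, 1876 and 2239.6 on the HA coating. Both genes were above bare alloy in all treated libraries. The rise on TiB2 was 1.35-fold for ENO1 (edgeR adjusted p = 0.00728) and 1.27-fold for GAPDH (edgeR adjusted p = 0.0284). On the HA coating neither passed (edgeR adjusted p = 0.0907 and 0.221). The GAPDH call on TiB2 was lost without bare alloy replicate 2 or 3 or TiB2 replicate 2 or 3. It was also lost in 6 of 11 other settings of the test, upper quartile scaling among them.

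Not every step of the pathway rose. PFKL, the liver-type phosphofructokinase, lay at 14.3, 14.3 and 17.3 FPKM on bare alloy, 12.2, 13.8 and 13.0 on TiB2 and 15.0, 10.0 and 11.7 on the HA coating. TiB2 lay just under bare alloy (1.21-fold lower, edgeR adjusted p = 0.0337). That call was lost without bare alloy replicate 1 or 3 or TiB2 replicate 1 or 3, and in 6 of 11 other settings. PFKM and PFKP, the other phosphofructokinases, had log2 fold changes of -0.30 to 0.09 and were not called. PKM, the pyruvate kinase gene, lay at 311 to 429.7 FPKM over all libraries, with log2 fold changes of -0.15 ± 0.21 on the HA coating and -0.20 ± 0.10 on TiB2, neither past the threshold. TPI1, triosephosphate isomerase, lay at 206, 212 and 213 FPKM on bare alloy, 233, 262 and 274 on TiB2 and 279, 288 and 467 on the HA coating. Its surfaces did not overlap, and its fold changes of 1.64 on the HA coating (edgeR adjusted p = 0.116) and 1.17 on TiB2 (edgeR adjusted p = 0.0707) missed the threshold in edgeR and passed in DESeq2. ENO2, the neuronal enolase, was 1.28-fold higher on the HA coating (edgeR adjusted p = 0.301) and 1.37-fold higher on TiB2 (edgeR adjusted p = 0.092), with overlapping libraries.

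Of the 4 transport genes 1 passed on TiB2 and none on the HA coating. SLC16A1, the monocarboxylate carrier MCT1, lay at 22.2, 25.8 and 25.5 FPKM on bare alloy, 28.6, 30.1 and 32.3 on TiB2 and 29.2, 43.6 and 41.0 on the HA coating. All treated libraries were above bare alloy, and the rise passed on TiB2 (1.20-fold, edgeR adjusted p = 0.0196) and not on the HA coating (1.53-fold, edgeR adjusted p = 0.0789). The TiB2 call was lost without bare alloy replicate 1 or 3 or TiB2 replicate 3, and in 4 of 11 other settings of the test. SLC2A1, the glucose carrier GLUT1 and a HIF target, lay at 12.2 to 26.7 FPKM, and SLC16A3, the lactate exporter MCT4, at 16.6 to 29.0 FPKM, and neither was called on either surface. SLC2A3, the carrier GLUT3, lay at 1.17, 0.658 and 0.759 FPKM on bare alloy, 0.963, 1.21 and 1.36 on TiB2 and 1.35, 1.56 and 1.96 on the HA coating. The HA libraries lay above bare alloy, 1.84-fold by their fit (edgeR adjusted p = 0.101), and DESeq2 called both SLC2A3 and SLC16A1 higher there.

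PDK1, which blocks entry of pyruvate into the mitochondrial cycle, lay at 2.24, 2.61 and 2.68 FPKM on bare alloy, 3.06, 3.13 and 3.41 on TiB2 and 3.35, 3.98 and 3.59 on the HA coating. Every treated library was above every bare alloy library. The rise was 1.24-fold on TiB2 (edgeR adjusted p = 0.0185, lost without bare alloy replicate 1 or 2 or TiB2 replicate 3) and 1.43-fold on the HA coating (edgeR adjusted p = 0.0576). The call on TiB2 was also lost in 5 of 10 other settings of the test.

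Because each step can be served by several isozymes, their shares of the summed FPKM of a family were compared within each library, which removes the scaling of libraries. HK2 made up 39.1%, 42.5% and 42.0% of hexokinase FPKM on bare alloy, 65.0%, 65.2% and 63.6% on TiB2 and 54.9%, 58.0% and 49.7% on the HA coating. By FPKM the larger hexokinase was thus HK1 in the bare alloy libraries and HK2 in the TiB2 libraries and in HA replicates 1 and 2. In HA replicate 3 the 2 were nearly level, with HK1 at 48.9%, and by counts not scaled to length HK1 was the larger there (13313 against 12740). PFKFB4 went from 14.7% ± 0.342 (SD, n = 3) of the PFKFB family to 22.3% ± 1.67 on TiB2 and 28.1% ± 4.52 on the HA coating, while PFKFB3 went from 72.1% ± 1.07 to 64.4% ± 1.04 and 60.4% ± 2.27. LDHB held 46.9% to 48.8% of lactate dehydrogenase FPKM on bare alloy, 52.0% to 58.8% on TiB2, and 48.7%, 59.0% and 58.1% on the HA coating, where replicate 1 overlapped bare alloy. The phosphofructokinase shares overlapped between surfaces for PFKL and PFKP. For HK2 and PFKFB4 the exact permutation test (two-sided) gave p = 0.1 in each of the 3 comparisons, the smallest that 3 against 3 libraries allows, and 0.252 after adjustment over 63 share comparisons.

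**Figure D2:**
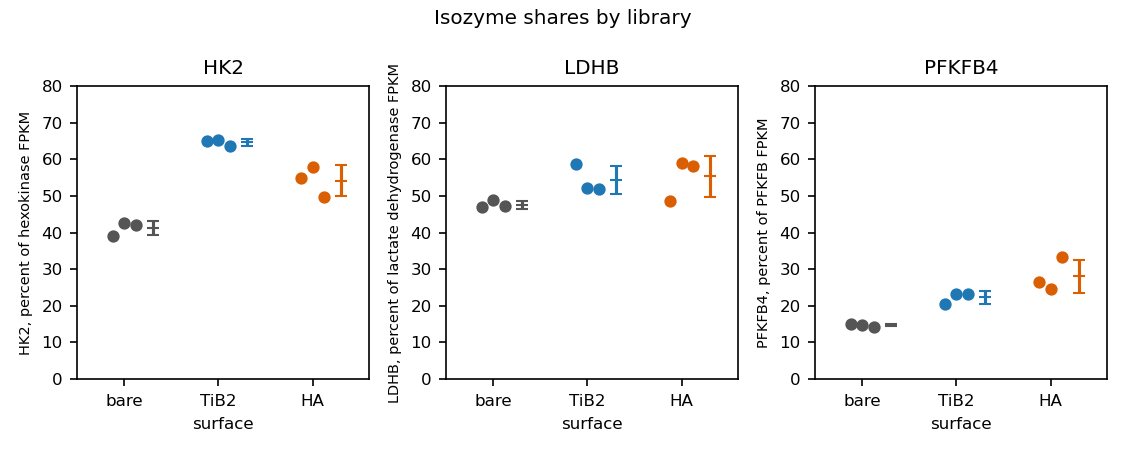
Share of HK2, LDHB and PFKFB4 in the summed FPKM of their gene families (percent, y axis from 0), 1 point per library for each surface, with mean ± SD (n = 3) to the right of the points. HK2 sat at 39.1% to 42.5% on bare alloy and at 63.6% to 65.2% on TiB2, with the HA coating between them.

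The HIF alpha subunits moved in opposite directions by their means. EPAS1, which encodes HIF-2alpha (ENSG00000116016, chromosome 2, 46293667 to 46386696), lay at 63.7, 66.0 and 69.1 FPKM on bare alloy, 52.1, 51.3 and 45.3 on TiB2 and 45.4, 27.9 and 20.5 on the HA coating. Both treated surfaces lay under bare alloy, and the HA libraries spread widely, with replicate 1 close to TiB2. The log2 fold change was -1.12 ± 0.26 on the HA coating (2.17-fold lower, edgeR adjusted p = 0.0285) and -0.47 ± 0.08 on TiB2 (edgeR adjusted p = 0.00233). HIF1A (ENSG00000100644, chromosome 14, 61695513 to 61748258) lay at 32.6, 35.7 and 33.5 FPKM on bare alloy, 46.3, 38.1 and 39.2 on TiB2 and 47.3, 53.8 and 36.9 on the HA coating. All treated libraries lay above bare alloy, yet the fold changes did not pass (1.32-fold, edgeR adjusted p = 0.147 on the HA coating, and 1.17-fold, edgeR adjusted p = 0.0956 on TiB2). With the GC and length offset the log2 fold change of HIF1A on the HA coating went from 0.40 to 0.10 (edgeR adjusted p = 0.712). That of EPAS1 was -0.96 with the offset (edgeR adjusted p = 0.00444).

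The HIF targets outside glycolysis gave mixed results. On TiB2 2 of 11 rose and 1 fell, where 25.1% of all genes were called, and on the HA coating none was called, where 9.89% were. Neither count is read as particular to these targets. CA12, a membrane carbonic anhydrase of acid balance, lay at 40.0, 45.4 and 49.1 FPKM on bare alloy, 68.6, 66.7 and 72.1 on TiB2 and 52.6, 37.5 and 33.1 on the HA coating. TiB2 stood above both other surfaces without overlap, and the rise over bare alloy was 1.49-fold (edgeR adjusted p = 0.000456). ADM, which encodes the vessel-relaxing peptide adrenomedullin, went the other way. It lay at 72.6, 78.2 and 81.8 FPKM on bare alloy, 47.0, 65.8 and 59.5 on TiB2 and 50.9, 30.0 and 74.1 on the HA coating. It was 1.40-fold lower on TiB2 (edgeR adjusted p = 0.00951), and on the HA coating replicate 3 overlapped bare alloy (edgeR adjusted p = 0.276).

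BNIP3L, a receptor for removal of mitochondria, lay at 49.9, 56.8 and 54.2 FPKM on bare alloy, 58.0, 70.0 and 74.4 on TiB2 and 63.4, 65.4 and 89.8 on the HA coating. Its rise on TiB2 was 1.21-fold and just inside the threshold (edgeR adjusted p = 0.0494). With 1 library left out the call held only when that was TiB2 replicate 1, not for the other 5 libraries. The call was also lost in 9 of 11 other settings of the test. VEGFA, the main vessel growth factor, lay at 29.0, 32.4 and 44.6 FPKM on bare alloy, 31.0, 52.6 and 50.2 on TiB2 and 37.9, 29.8 and 39.9 on the HA coating, with the surfaces overlapping (edgeR adjusted p = 0.316 on TiB2 and 0.968 on the HA coating). Its log2 fold change on the HA coating went from 0.02 to 0.60 with the GC and length offset and did not pass there either (edgeR adjusted p = 0.209). EGLN1 and KDM3A, an oxygen sensor and a histone demethylase, stayed within 10.4 to 13.1 and 5.28 to 7.45 FPKM. BNIP3, a mitophagy receptor related to BNIP3L, was 1.16-fold higher on TiB2 and 1.67-fold higher on the HA coating, and passed on neither (edgeR adjusted p = 0.112 and 0.127).

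Several of these targets differed more between libraries of 1 treated surface than between surfaces. CA9, a carbonic anhydrase at the cell surface (ENSG00000107159, chromosome 9, 35673928 to 35681159), lay at 10.8, 10.2 and 14.6 FPKM on bare alloy, 7.24, 27.9 and 18.2 on TiB2 and 16.7, 7.68 and 31.9 on the HA coating. NDRG1, a stress-responsive gene and among the most abundant RNAs of these cells (ENSG00000104419, chromosome 8, 133237175 to 133302022), lay at 878, 898 and 1070.4 FPKM on bare alloy, 592, 1239 and 1071 on TiB2 and 998, 477 and 1365 on the HA coating. In both genes TiB2 replicate 1 and HA replicate 2 lay below all bare alloy libraries, while HA replicate 3 lay above them all. ANKRD37, a small HIF target, ran from 0.825 to 4.18 FPKM on the HA coating, 5.06-fold between replicates 2 and 3. ADM, EGLN3 and ALDOA had the same lowest and highest HA libraries.

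Over the 11 targets outside glycolysis, the SD of log2 level within a surface had a median of 0.12 on bare alloy, 0.23 on TiB2 and 0.60 on the HA coating. Over the 17 enzymes it was 0.07, 0.13 and 0.30, and over all 21008 genes tested 0.14, 0.15 and 0.29. TiB2 replicate 1 was the lowest TiB2 library for 9 of the 11 targets and for 11 of the 17 enzymes, against 32.3% of all genes and 20.1% of genes with a mean FPKM of at least 5. HA replicate 3 was the highest HA library for 9 of the 11 targets, against 38.1% and 53.0%, and HA replicate 2 was the lowest for 7 of 11, against 30.2% and 36.4%. Without TiB2 replicate 1, CA9, VEGFA, EGLN3 and ANKRD37 were called higher on TiB2, and 19 members in place of 13. Calls over all genes went from 5059 to 3986 when that library was left out. The share of deviation that went with GC content and length was 1.95% in TiB2 replicate 1 and 41.2% and 47.3% in HA replicates 2 and 3, and its part in the spread was not tested.

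**Figure D3:**
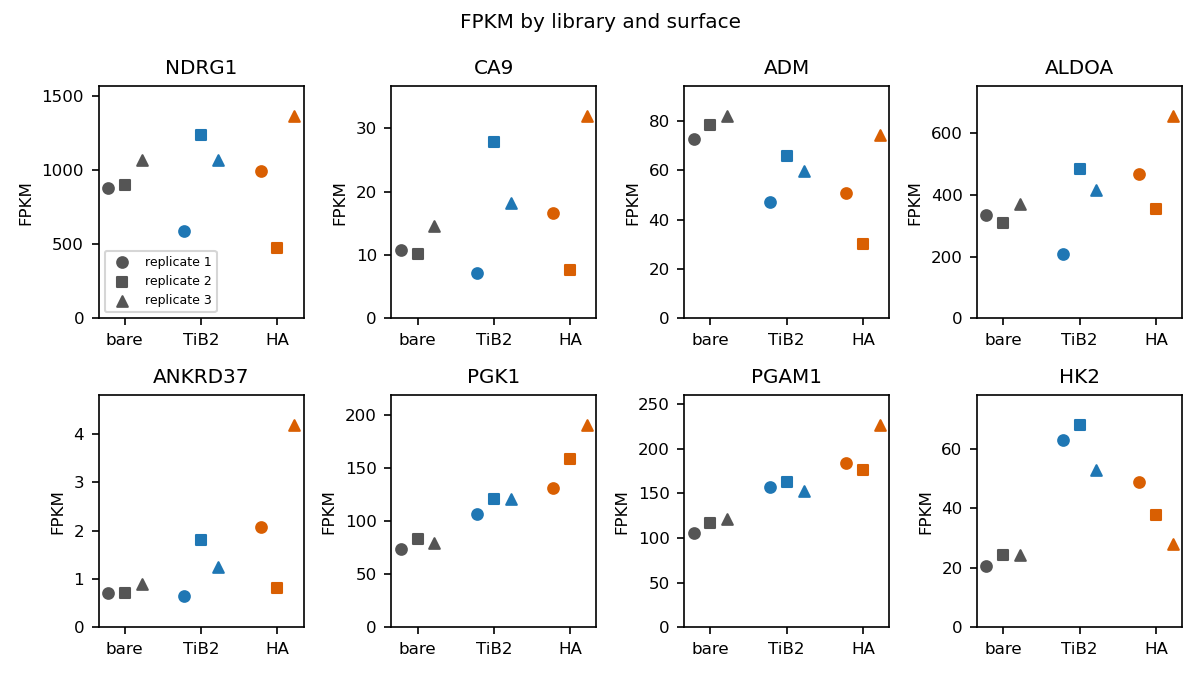
FPKM of 8 genes in each library (y axis from 0), by surface, with the marker shape giving the replicate. NDRG1, CA9, ADM, ALDOA and ANKRD37 had their lowest treated values in TiB2 replicate 1 or HA replicate 2 and their highest HA value in replicate 3, while PGK1, PGAM1 and HK2 separated bare alloy from both treated surfaces.

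Set side by side by library, the median difference from the bare alloy mean over the 17 enzymes was 0.15, 0.35 and 0.35 (log2) in the TiB2 libraries and 0.37, 0.37 and 0.84 in the HA libraries. Over the 11 targets outside glycolysis it was -0.20, 0.32 and 0.42 on TiB2 and 0.17, -0.17 and 0.64 on the HA coating. So the enzymes were above bare alloy by their median in all 6 treated libraries, and the other targets in 4 of them. The median over all genes tested was -0.01 to 0, where the scaling of the libraries largely holds it. No p is given for these medians, since the genes were chosen with results known.

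**Figure D4:**
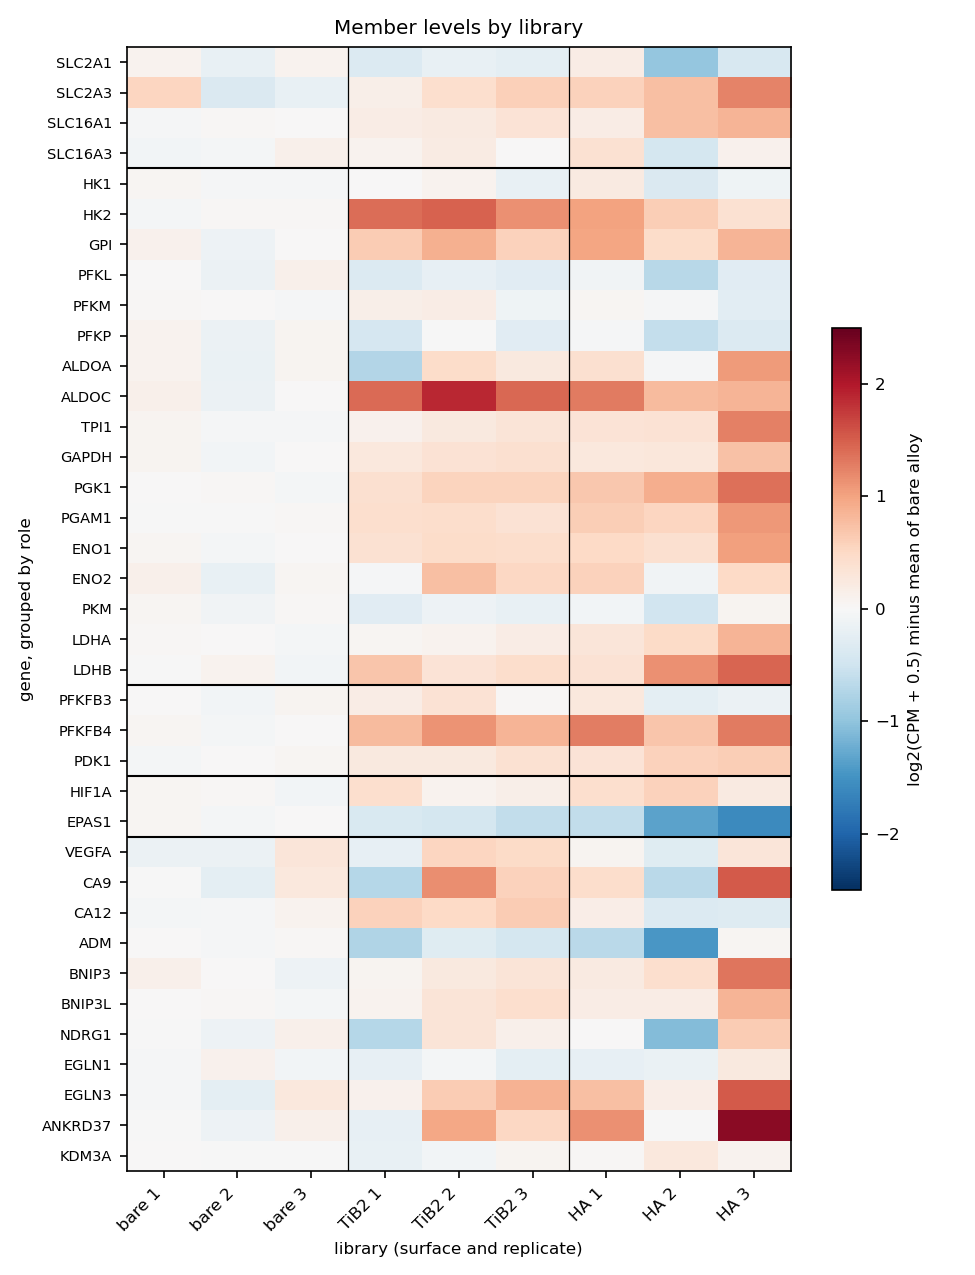
Level of each member (rows, grouped by role as in the plot of fold changes) in each of the 9 libraries (columns), as log2(CPM + 0.5) minus the mean of the bare alloy libraries, red for higher and blue for lower. HK2, ALDOC and PFKFB4 are red in all treated libraries and EPAS1 blue, while CA9, NDRG1 and ANKRD37 change colour between libraries of 1 surface.

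The treated surfaces were then compared with each other, without bare alloy. No member passed (edgeR adjusted p from 0.180 upward), against 0.632% of 20086 genes, which is 127 genes (0.179% higher and 0.453% lower), and 6 of 37 members had an unadjusted p under 0.05, as did 2417 of all genes. HK2 was 1.59-fold lower on the HA coating than on TiB2 (-0.66 ± 0.21, edgeR adjusted p = 0.278), CA12 1.66-fold lower (-0.73 ± 0.19, edgeR adjusted p = 0.180), ALDOC 1.66-fold lower (edgeR adjusted p = 0.386) and EPAS1 1.57-fold lower (edgeR adjusted p = 0.377). PGK1 was 1.41-fold higher (edgeR adjusted p = 0.392) and LDHA 1.36-fold higher (edgeR adjusted p = 0.401). FPKM lay higher without overlap for 4 members (TPI1, PGK1, PGAM1 and LDHA) and lower for 3 (HK2, ALDOC and CA12), against 18.4% of all genes in either direction, 8.58% higher and 9.87% lower. DESeq2 called CA12 alone of the members, and 501 of all genes. Without HA replicate 1, HK2, CA12 and EPAS1 were called lower and LDHB higher, where calls over all genes rose from 127 to 1224 of 20951. A p above the threshold does not show that the surfaces act alike: in simulated libraries 29.8% of genes changed 2-fold were recovered in this comparison. The simulation gave each gene the same spread in both groups. In the data the median SD over all genes tested was 0.29 on the HA coating and 0.15 on TiB2, so that share is a rough guide.

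Other genes of these pathways were taken from lists of known members. Their counts stand beside calls for 9.89% of all genes on the HA coating and 25.1% on TiB2. Rises alone made up 5.02% and 12.9% of all genes, and falls 4.88% and 12.2%. Of 25 tested genes of glycolysis and pyruvate handling, 2 rose and 2 fell on the HA coating: TIGAR (1.82-fold), a phosphatase that lowers fructose 2,6-bisphosphate, and PDP1 (0.59 on the log2 scale), which activates pyruvate dehydrogenase, were higher, and SLC2A12 (3.25-fold), a sugar carrier, and PDK2 (1.71-fold), which inhibits pyruvate dehydrogenase, were lower. On TiB2 6 of 26 rose and 3 fell. Of 31 further HIF targets 4 rose and 1 fell on the HA coating, with STC1, a secreted stanniocalcin, 6.75-fold higher, CXCR4 2.80-fold, HILPDA, a lipid droplet protein, 2.19-fold and RORA 1.80-fold, and PPP1R3C, a glycogen regulator, 5.00-fold lower. On TiB2 12 of 31 rose and 2 fell. Of 12 genes of the HIF machinery 1 fell on the HA coating, CITED2, which competes with HIF for its coactivators (1.99-fold lower, edgeR adjusted p = 0.0224). On TiB2 2 rose, VHL and CUL2 of the complex that marks HIF for destruction, and 2 fell, CITED2 and EP300. Between the treated surfaces STC1 alone was called in these lists, 5.04-fold higher on the HA coating (edgeR adjusted p = 0.0118), at a mean of 0.681 against 0.137 FPKM.

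Several members have processed copies in the genome that could draw reads. Rows named as such copies (GAPDH had 36) held at most 1.71% of the joint counts for every member except SLC2A3 (up to 9.40%) and EGLN3 (up to 2.56%), so the values of these 2 genes are less certain. These rows cannot show whether other members lost reads, since it is not stated how reads that match several places were handled.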

How the data were processed

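RNA-seq libraries of MG-63 cells on 3 surfaces were compared, 3 libraries per surface. The authors deposited 1 table with raw counts per gene, and FPKM values that the authors computed (fragments scaled to gene length and library size), for 36385 genes. FPKM divided by the count was constant within a gene apart from a library factor (median SD 0.000963, log2, over 13428 genes). Per the submitters' processing notes, the tools included featureCounts 2.0.1, HISAT2 2.2.1, cutadapt 2.10 and StringTie 2.1.4, with the build GRCh38; how strand and multi-mapped reads were handled is not stated there.

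Each comparison used its 6 libraries: edgeR 4.0.16 (R 4.3.3) with filterByExpr, TMM scaling and the quasi-likelihood test, two-sided, Benjamini-Hochberg adjusted over all genes, threshold 0.05. The SE is the log2 fold change divided by the square root of F. Levels are deposited FPKM. Spread and library medians used log2(CPM + 0.5). Alternatives used limma 3.58.1 and DESeq2 1.42.0. GC content and length came from the longest GENCODE release 29 transcript (34442 genes, 94.7%). In simulated data each gene had the same spread in both groups. There edgeR found 25.8% of genes changed 2-fold and 76.0% of those changed 4-fold in the HA coating against bare alloy (19387 genes). In TiB2 against bare alloy it found 48.4% and 80.2% (19478 genes).

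The members and lists were chosen with earlier results of these data known. Values in every library are given for members past the threshold in any comparison and for HIF1A, EPAS1, GAPDH, VEGFA, CA9, LDHA and LDHB. ALDOA, NDRG1, PKM, BNIP3, ANKRD37, TPI1, ENO2 and SLC2A3, and the HIF machinery genes named for TiB2, were added after their values were seen. Of the other pathway genes at most 4 per list past the threshold on the HA coating are named, by size; the fifth HIF target is named as well. Replicate numbers are shared by the titles only. Marker lists covered mesenchymal and osteoblast, epithelial, endothelial, macrophage, T cell and red cell genes: 7 of 9, 3 of 7, 1 of 6, 2 of 6, 0 of 6 and 0 of 3 in the table had a mean FPKM of at least 1. Summed endothelial markers, mostly CDH5, were 4.55 to 5.71 FPKM on bare alloy and 1.66 to 2.17 on treated surfaces, and their part in the results was not tested. A count of 0 allows 3 counts, 0.0450 to 0.0549 CPM, for counting error only.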

Additional observations from a re-analysis of the deposited data

How the results depend on the processing

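Counts of called members moved with the test, and so did calls over all genes. On the HA coating against bare alloy, the 6 higher members became 16 with DESeq2, 2 with no filter on low counts, 11 with all 9 libraries in 1 fit, 0 with the library set as a term, 10 with an offset for GC content and length, and 0 to 13 with 1 library left out. The 1 lower member became 0 with no filter, 0 with the library set and 2 with the GC and length offset, and 0 to 2 with 1 library left out. Over all genes the 1990 calls there became 3562 with DESeq2, 1093 of 34748 with no filter and 3518 in 1 fit of all 9. They became 704 with the library set, 3756 with the GC and length offset, and 598 to 4185 with 1 library left out. On TiB2 against bare alloy, the 13 higher members became 5 in 1 fit of all 9 libraries, 3 with the library set, and 9 to 19 with 1 library left out. The 3 lower became 5 with DESeq2, 0 in 1 fit of all 9, 0 with the library set, 5 with the GC and length offset, and 2 to 4 with 1 library left out. Over all genes the 5059 calls on TiB2 became 5747 with DESeq2, 2132 in 1 fit of all 9 and 1173 with the library set. They became 5831 with the GC and length offset and 3685 to 4211 with 1 library left out. Between the treated surfaces DESeq2 called 1 lower, and leaving out 1 library gave 0 to 1 higher and 0 to 3 lower. Over all genes the 127 calls there became 501 with DESeq2 and 49 to 1224 with 1 library left out. The cause was not tested.

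The enzyme median on TiB2 (0.34) was 0.29 with upper quartile scaling, 0.25 at a mean FPKM of at least 5, 0.39 with limma at either pseudocount, 0.29 with the GC and length offset and 0.28 to 0.38 with 1 library left out. On the HA coating that range was 0.35 to 0.74 for the enzymes and -0.02 to 0.35 for the other HIF targets (0.43 and 0.30 with the GC and length offset, 0.42 and -0.10 at a mean FPKM of at least 5), on TiB2 0.16 to 0.37 for the latter, and between treated surfaces -0.03 to 0.19 and -0.11 to 0.26.

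VEGFA on the HA coating (0.02) went to 0.60 with the GC and length offset, and turned to -0.05 with upper quartile scaling, -0.10 at a mean FPKM of at least 5, and -0.13 to 0.18 with 1 library left out (-0.06 and -0.05 without bare alloy replicates 1 and 2). CA9 (0.69) ran from -0.02 without HA replicate 3 to 1.08 without HA replicate 2.

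Same-numbered libraries deviated together no more than others (correlations of -0.057 to 0.04). Correlations over all genes cannot exclude a shared culture or day, so whether the numbers pair the libraries is not known. With the replicate block 2 members were higher and 1 lower on the HA coating, 9 and 2 on TiB2, and 0 between treated surfaces. Calls over all genes were 1357, 3625 and 195 in those comparisons.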
